A study of Mus musculus with 8 samples.

Results

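The genes described here are 37 enzymes, transporters and accessory proteins of fatty acid oxidation in mitochondria and peroxisomes, a list of gene symbols matched to the array's probe annotation. Of these, 35 had a probe set that names no other gene and were measured, among 18193 measured genes in all. Cpt1b and Acsl1 were not analysed here. By the place where their proteins act, 18 of the measured genes were grouped as mitochondrial, 10 as peroxisomal and 7 as other, the last acting on outer membranes, in the cytosol or in both organelles.

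RNA came from GFP-positive cells sorted from digested kidneys of 6-month-old male C57BL/6 mice carrying the FSP1-eGFP transgene, in which the promoter of S100a4 (FSP1) drives the reporter, and was hybridised to Affymetrix mouse arrays. The ischemic group held 5 kidneys, taken at day 3 after a 45-minute clamp on the vessels (artery and vein) of the left kidney. The normal group held 3 kidneys without ischemia, which the labels also call sham and for which they do not say that each came from a different mouse. Both groups carry the transgene and were sorted alike, the operated mice received buprenorphine for pain, and p-values measure only the spread between these arrays.

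Fatty acid oxidation shortens acyl-CoA chains by repeated rounds of dehydrogenation, hydration, another dehydrogenation and thiolysis. In mitochondria, long chains enter as carnitine esters, and the electrons removed pass through electron transfer flavoprotein to the respiratory chain. Peroxisomes take very long and branched chains, use oxidases that make hydrogen peroxide in the first step, and pass shortened chains on to mitochondria. In the kidney the pathway is known as the main fuel supply of the proximal tubule, and many of its genes are targets of the nuclear receptor PPAR alpha and its coactivator PGC-1 alpha.

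Some arrays stood apart. S100a4 was bright on every array, between 11.30 and 12.22 on the log2(intensity + 16) scale used throughout. By their mean over the 8 arrays, all 14 measured macrophage markers reached the median level of all genes. So did 8 of 8 endothelial, 18 of 20 proximal tubule and 10 of 12 distal nephron markers. The 7 of 12 fibroblast markers that reached it were near the share of all genes, 9097 of 18193. Above each array's own median were 8, 16, 15, 6 and 11 of the 20 proximal tubule markers on ischemic 1 to 5. On each normal array 19 of the 20 were above it. The 12 distal nephron markers gave 6, 10, 10, 7 and 8 on ischemic arrays, against 10, 11 and 10 on normal arrays. Transcripts of several cell types were thus present, with fewer proximal tubule markers above the median on every ischemic than on any normal array. Ischemic 1 had a median correlation with the other arrays, across genes, of 0.753, against 0.850 to 0.913 for the other 7. Xist, an RNA of female cells, was at 11.21 on ischemic 1, 9.39 on ischemic 2 and 11.01 on normal 1, although every label says male. It was between 4.49 and 4.96 on the other 5 arrays. The Y-linked genes Kdm5d, Eif2s3y and Uty were at 6.86, 5.84 and 4.41 on ischemic 1 and at 6.35, 5.84 and 5.01 on normal 1, below all other arrays. On ischemic 2 they were at 7.88, 7.78 and 6.73, within the range of the arrays of low Xist signal. Results are therefore also given for the 5 arrays of low Xist signal (3 ischemic and 2 normal).

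Most of the oxidation genes had lower values in cells from ischemic kidneys, but no single gene passed the test. Differences were negative for 30 of the 35 measured genes (85.7%), against 45.2% of all genes tested, and their median was -0.99 against 0.041 for all genes. None of the 35 reached an adjusted p of 0.05 in limma, where 0 of 18193 genes (0% of all) did, and their adjusted p ran from 0.140 to 0.967. At an unadjusted p under 0.05, 17 of the 35 were lower and 0 were higher in ischemic arrays, while 5.02% of all genes were lower and 2.11% higher. Every ischemic array lay below every normal array in 11 of the 35, against 3.44% of all genes. Less of a transcript in such a sorted pool may come from fewer cells of a type or from less RNA per cell, and these cannot be told apart in bulk samples.

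These counts depended on the arrays used. Without normal 1, 8 of the 35 were lower at an unadjusted p under 0.05, against 3.39% of all genes in that setting. With the 5 arrays of low Xist signal alone, 25 of 35 differences were negative, against 49.0% of all genes, and 9 of 35 were lower at that threshold, against 3.28% of all genes. The groups were apart in 17 of the 35 without ischemic 3 and in 18 without normal 3, where the share of all genes was also higher, at 4.47% and 7.87%.

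**Figure D1:**
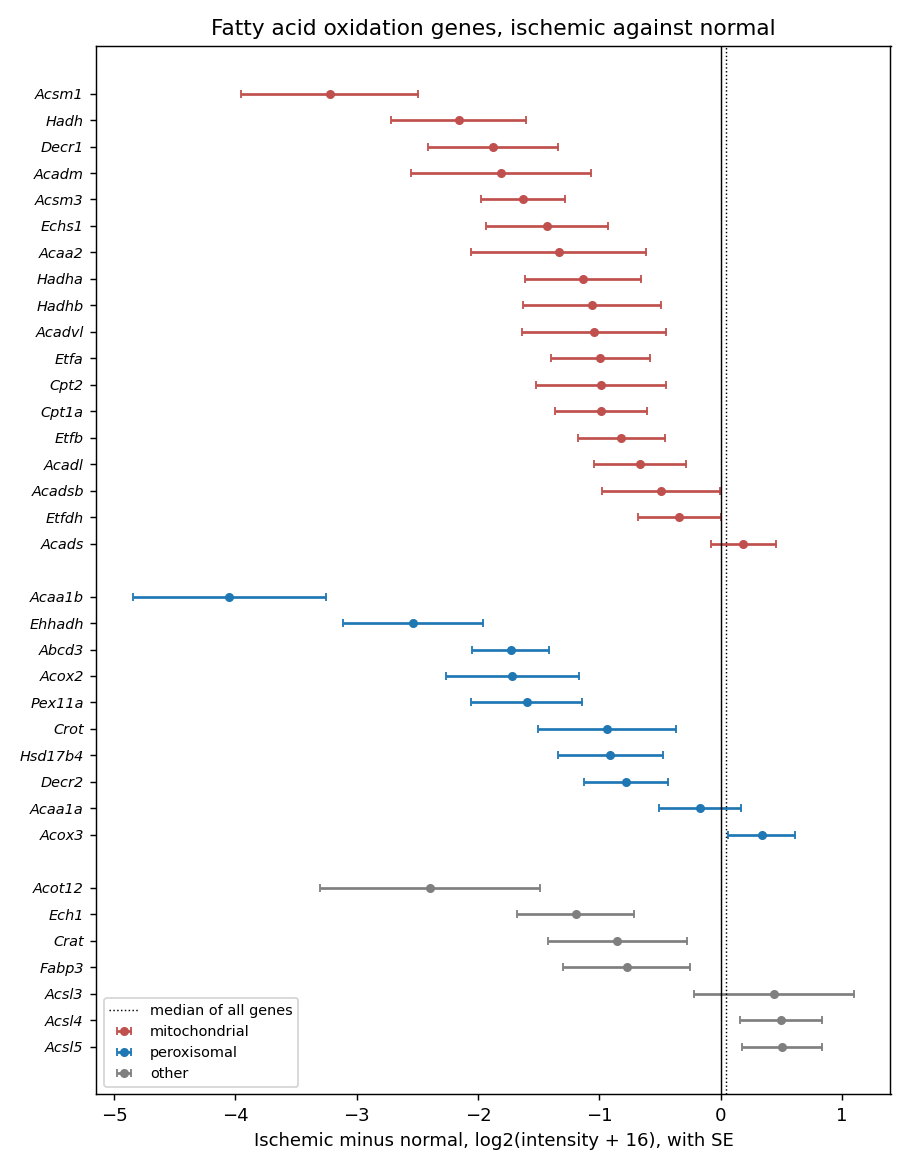
Difference between ischemic and normal arrays for each of the 35 measured genes on the log2(intensity + 16) scale (points, with the standard error from limma as bars), ordered within the mitochondrial, peroxisomal and other groups. Most points lie left of 0, Acaa1b lies farthest left at -4.05, and Acox3, Acads, Acsl3, Acsl4 and Acsl5 lie to the right.

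Among the mitochondrial genes, 17 of 18 differences were negative, with a median of -1.05. The mean of the 18 genes was 7.45 ± 0.66 (SD, n = 5) on ischemic and 8.66 ± 0.56 (SD, n = 3) on normal arrays. At an unadjusted p under 0.05, 10 of the 18 were lower, against 5.02% of all genes. In 7 the groups did not overlap, against 3.44% of all genes. Ischemic 1 had the lowest mean (6.34) and normal 1 the highest (9.28), and ischemic 3 (8.12) came close to normal 3 (8.19). With the 5 arrays of low Xist signal alone, the median difference was -0.48.

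At the entry to mitochondria, Cpt1a makes the carnitine esters of long chains and is the controlled step of the pathway. It had 7.55, 8.89, 9.05, 8.83 and 8.72 on the 5 ischemic arrays, against 9.93, 9.73 and 9.12 on the 3 normal arrays. The groups did not overlap, but the gap was narrow, and the difference was -0.99 ± 0.38 (SE, limma adjusted p = 0.600). Ischemic 1 was far below the other ischemic arrays, and with low Xist signal alone the difference was -0.56. Cpt2, which turns the esters back to acyl-CoA inside, differed by -0.99 ± 0.54 with overlapping groups, and by 0.027 with low Xist signal alone.

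The medium-chain acyl-CoA synthetases of the matrix, which activate shorter chains without carnitine, stood out. Acsm1 had 4.33, 7.72, 6.85, 6.25 and 6.00 on ischemic arrays, against 10.48, 9.19 and 8.69 on normal arrays. All ischemic arrays were at least 0.97 below the lowest normal array, and the difference of -3.22 ± 0.73 (SE, limma adjusted p = 0.189) was the most negative among the mitochondrial genes. Acsm3 had 5.47, 5.81, 6.37, 4.93 and 5.59 on ischemic arrays, against 7.61, 7.37 and 6.81 on normal arrays. The groups were apart here too, with a difference of -1.63 ± 0.35 (limma adjusted p = 0.171), and ischemic 4 was the lowest array.

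The acyl-CoA dehydrogenases, which take the first step for chains of different length, spanned a wide range. Acadm, the medium-chain enzyme, differed by -1.81 ± 0.74 (SE), Acadvl, for very long chains, by -1.04 ± 0.59, and Acadl, for long chains, by -0.67 ± 0.38. Acadsb, which also degrades isoleucine, differed by -0.49 ± 0.49, and Acads, for short chains, was near the bottom of the scale in both groups, between 4.09 and 5.10, where an intensity of 1 gives 4.09. None passed in limma, and only for Acadm was the unadjusted p under 0.05, at 0.0388. The Acadm groups were apart but close, and 2 arrays stood out: ischemic 1 was at 5.10 with the other ischemic arrays at 7.25 to 8.28, and normal 1 was at 10.21 with the other normal arrays at 8.37 and 8.57. Among the arrays of low Xist signal the difference was -0.52 for Acadm, -0.43 for Acadvl, -0.069 for Acadl and 0.076 for Acadsb.

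For the later steps, Hadh, the dehydrogenase for short and medium chains, had the lowest p of these genes. Hadh had 7.21, 8.42, 9.52, 8.27 and 9.47 on ischemic arrays, against 11.39, 10.69 and 10.12 on normal arrays. The groups did not overlap, the difference was -2.16 ± 0.56 (SE, limma adjusted p = 0.248), and both other probe sets were negative too, 1 of them at -1.77. Echs1, the hydratase, differed by -1.43 ± 0.50, and Acaa2, the thiolase, by -1.34 ± 0.72, both with overlapping groups. Hadha and Hadhb, the subunits of the trifunctional protein of the inner membrane, differed by -1.14 ± 0.48 and -1.06 ± 0.57, and 1 of the 2 other Hadhb probe sets gave 0.12. With low Xist signal alone the difference was -1.32 for Hadh, -0.63 for Echs1, -0.24 for Acaa2 and -0.60 for Hadhb, each smaller than over all arrays.

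Decr1 reduces dienoyl-CoA so that unsaturated chains can be oxidised. It had 6.08, 7.09, 7.66, 7.32 and 7.23 on ischemic arrays, against 10.25, 8.62 and 8.01 on normal arrays. The groups were apart by 0.34, and the difference was -1.88 ± 0.54 (SE, limma adjusted p = 0.337). Without normal 1, the highest array, it was -1.23, and with low Xist signal alone -0.91.

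The electron carriers take over from the dehydrogenases. Etfa, a subunit of electron transfer flavoprotein, had 9.17, 9.80, 10.61, 9.25 and 9.94 on ischemic arrays, against 11.50, 10.40 and 10.34 on normal arrays. Its partner Etfb had 9.29, 9.82, 10.16, 9.54 and 9.70 on ischemic arrays, against 11.40, 10.15 and 10.02 on normal arrays. In both genes ischemic 3 lay within the normal range while normal 1 lay above all other arrays, and the differences were -0.99 ± 0.41 and -0.82 ± 0.36 (SE, limma adjusted p = 0.662 and 0.700). Without normal 1 they were -0.61 for Etfa and -0.38 for Etfb, and with low Xist signal alone -0.44 and -0.28. Etfdh, which hands the electrons to ubiquinone, differed by -0.34 ± 0.34, and by 0.18 among the arrays of low Xist signal.

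**Figure D2:**
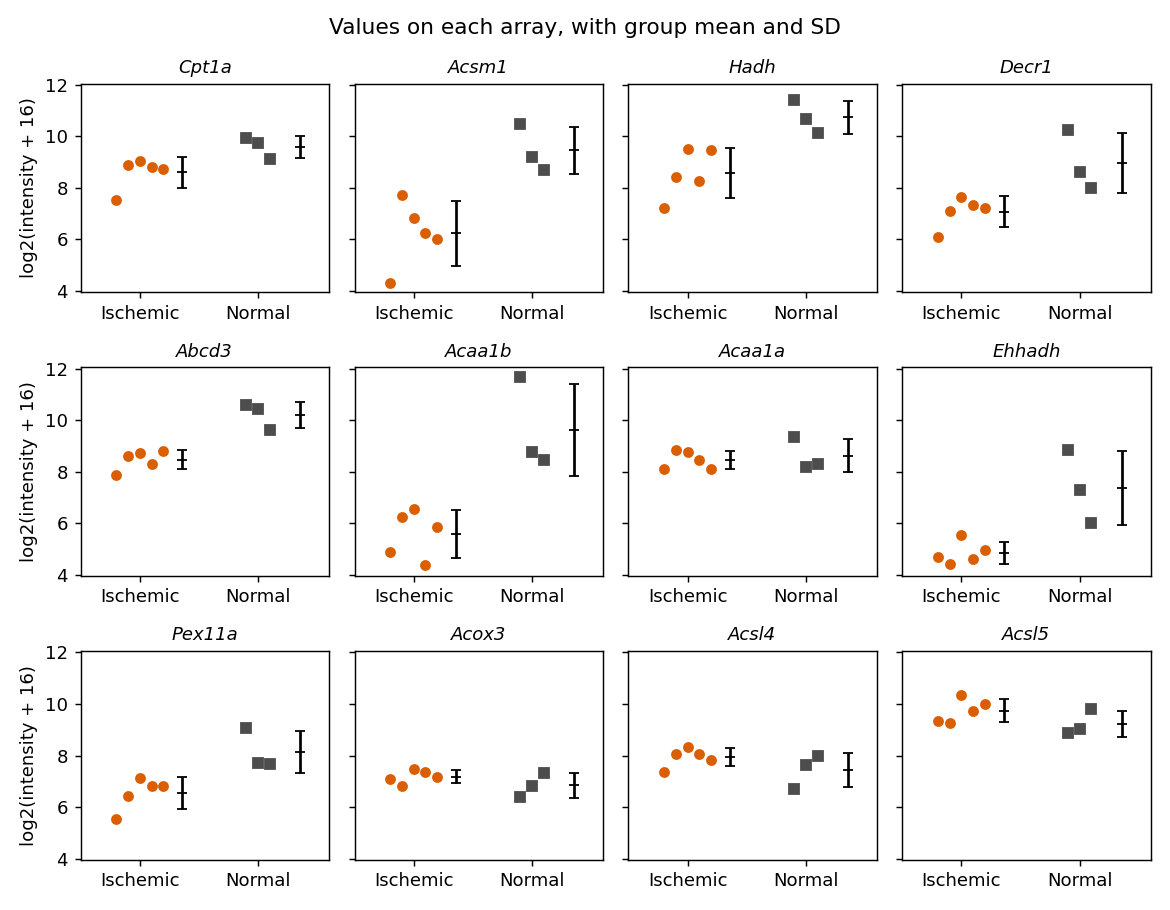
Values of 12 of the genes on each array on the log2(intensity + 16) scale, with ischemic arrays as circles, normal arrays as squares, and the group mean and SD beside them. Acaa1b and Ehhadh lie lower on every ischemic than on every normal array, while Acaa1a, Acox3, Acsl4 and Acsl5 overlap between the groups.

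Among the peroxisomal genes, 9 of 10 differences were negative, with a median of -1.27. The mean of the 10 genes was 6.65 ± 0.37 (SD, n = 5) on ischemic and 8.06 ± 0.71 (SD, n = 3) on normal arrays, and these means did not overlap, at 6.13 to 7.14 on ischemic and 7.43 to 8.83 on normal arrays. At an unadjusted p under 0.05, 5 of the 10 were lower, against 5.02% of all genes. In 4 the groups were apart, against 3.44% of all genes. With low Xist signal alone the median difference was -0.67. Whether peroxisomal and mitochondrial genes differed by different amounts was not tested.

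Abcd3, the membrane transporter that brings acyl-CoA into peroxisomes, had the lowest p of the 35 genes. It had 7.88, 8.61, 8.74, 8.30 and 8.82 on ischemic arrays, against 10.57, 10.43 and 9.61 on normal arrays. The lowest normal array was 0.78 above the highest ischemic array, and the difference was -1.73 ± 0.32 (SE, limma adjusted p = 0.140). Without normal 3 it was -2.03 and passed (limma adjusted p = 0.0491 there, and 0.0491 to 0.748 over all settings), and its other, dimmer probe set gave -0.65.

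The measured oxidases of the first step had differences of opposite sign. Acox2, which acts on branched chains and bile acid intermediates, differed by -1.72 ± 0.55 (SE), with normal 3 at 5.31 within the ischemic range. Acox3, an oxidase of methyl-branched chains, had 7.09, 6.80, 7.48, 7.37 and 7.18 on ischemic arrays, against 6.38, 6.82 and 7.34 on normal arrays. These groups overlapped, with a difference of 0.34 ± 0.28 (limma adjusted p = 0.929).

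Peroxisomes hold 2 bifunctional enzymes for the middle steps. Ehhadh, the one for straight chains, had 4.68, 4.43, 5.53, 4.61 and 4.96 on ischemic arrays, against 8.85, 7.27 and 6.00 on normal arrays. In deposited intensity it was at 5.13 to 29.6 on ischemic and 54.7 to 464 on normal arrays, so the ischemic arrays were near the bottom of the scale. The difference of -2.53 ± 0.58 (SE, limma adjusted p = 0.189) became -3.22 and passed without normal 3 (limma adjusted p = 0.0439 there, and 0.0439 to 0.893 over all settings). It was -1.80 without normal 1 and -1.61 with low Xist signal alone, and passed in neither. Hsd17b4, the D-bifunctional protein for branched and very long chains, had 8.33, 8.60, 9.55, 7.79 and 8.81 on ischemic arrays, against 9.97, 9.81 and 8.79 on normal arrays. These groups overlapped, the difference was -0.91 ± 0.43 (limma adjusted p = 0.746), and its other probe set gave -0.25. With low Xist signal alone the Hsd17b4 difference was -0.58.

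The closely related thiolase genes Acaa1b and Acaa1a, whose products take the last step in peroxisomes, had very different values. Acaa1b had 4.90, 6.23, 6.56, 4.37 and 5.86 on ischemic arrays, against 11.68, 8.75 and 8.46 on normal arrays. Every ischemic array was at least 1.91 below every normal array, and the difference of -4.05 ± 0.80 (SE) was the most negative of all 18193 genes, though it did not pass (limma adjusted p = 0.149). In deposited intensity Acaa1b was at 4.26 to 78.8 on ischemic and 380 to 3443 on normal arrays, with normal 1 the highest. It was -3.01 among the arrays of low Xist signal. Acaa1a had 8.10, 8.83, 8.78, 8.44 and 8.09 on ischemic arrays, against 9.36, 8.19 and 8.30 on normal arrays. Here the groups overlapped and the difference was -0.17 ± 0.34 (limma adjusted p = 0.967), with a sign that turned to 0.20 without normal 1. The Acaa1a value came from a probe set of a type that can also detect related sequences, and its other probe set gave 0.17, so how much of either signal comes from the sister gene was not tested.

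Of the remaining peroxisomal genes, Pex11a, which acts in the division of peroxisomes, had 5.52, 6.41, 7.13, 6.80 and 6.83 on ischemic arrays, against 9.06, 7.69 and 7.66 on normal arrays. Its groups were apart, with a difference of -1.60 ± 0.46 (SE, limma adjusted p = 0.337), and its other probe set gave -1.45. With low Xist signal alone the Pex11a difference was -0.76. Crot, which makes carnitine esters of shortened chains for export, differed by -0.94 ± 0.57, and Decr2, the peroxisomal dienoyl-CoA reductase, by -0.78 ± 0.34, both with overlapping groups. Among the arrays of low Xist signal the Crot difference was -0.037 and the Decr2 difference -0.49. The other Crot probe set gave 0.14 over all arrays.

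The promoter windows of the thiolase pair are shown since these genes differ most in their values, that of Hadha since it runs head to head with Hadhb, and those of Cpt1a and Acsm1 since they hold a match to the hexamer AGGTCA, the core element of PPAR, HNF4 and related receptors. Each window holds 300 bases, from 250 before to 50 after the annotated start, 5′ to 3′ on the gene's strand, from RefSeq on GRCm38.p6, the sequences' own build. Capitals mark AGGTCA and the CCAAT box on either strand, which may overlap.
Acaa1b (chr9:119157044-119157343, minus strand): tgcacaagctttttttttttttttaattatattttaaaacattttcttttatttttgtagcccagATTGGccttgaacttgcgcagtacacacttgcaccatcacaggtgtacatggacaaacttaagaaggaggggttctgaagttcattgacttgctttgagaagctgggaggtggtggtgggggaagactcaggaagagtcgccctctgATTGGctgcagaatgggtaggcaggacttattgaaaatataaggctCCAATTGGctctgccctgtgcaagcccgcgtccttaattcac
Acaa1a (chr9:119341044-119341343, plus strand): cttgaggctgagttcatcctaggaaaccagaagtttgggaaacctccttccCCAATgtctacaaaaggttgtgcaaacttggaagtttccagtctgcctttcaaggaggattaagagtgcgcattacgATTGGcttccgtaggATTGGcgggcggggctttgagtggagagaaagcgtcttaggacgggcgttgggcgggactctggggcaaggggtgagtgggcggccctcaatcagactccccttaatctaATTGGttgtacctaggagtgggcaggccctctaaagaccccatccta
Hadha (chr5:30154931-30155230, minus strand): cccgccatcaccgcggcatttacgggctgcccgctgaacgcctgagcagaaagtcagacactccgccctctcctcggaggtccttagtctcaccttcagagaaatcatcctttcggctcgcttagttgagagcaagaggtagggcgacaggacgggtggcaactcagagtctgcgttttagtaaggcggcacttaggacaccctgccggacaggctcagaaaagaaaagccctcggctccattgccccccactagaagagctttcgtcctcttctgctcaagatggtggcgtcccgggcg
Cpt1a (chr19:3323051-3323350, plus strand): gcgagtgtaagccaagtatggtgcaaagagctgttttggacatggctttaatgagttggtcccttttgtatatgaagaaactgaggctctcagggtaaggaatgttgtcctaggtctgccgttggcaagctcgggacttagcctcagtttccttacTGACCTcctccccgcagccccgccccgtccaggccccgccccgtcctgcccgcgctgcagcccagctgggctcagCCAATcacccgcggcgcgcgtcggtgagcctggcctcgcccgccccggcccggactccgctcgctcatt
Acsm1 (chr7:119617562-119617861, plus strand): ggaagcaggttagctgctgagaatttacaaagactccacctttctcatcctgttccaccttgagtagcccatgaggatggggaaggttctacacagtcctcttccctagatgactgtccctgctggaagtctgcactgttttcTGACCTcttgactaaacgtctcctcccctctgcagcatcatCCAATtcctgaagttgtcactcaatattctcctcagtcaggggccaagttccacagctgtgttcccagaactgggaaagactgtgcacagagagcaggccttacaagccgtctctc

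Windows were given for 32 of the 37 genes, 35 windows in all. AGGTCA was found on either strand in 6 of the 35 windows (17.1%), against 16.3% of all 32851 windows in the table, in Acadm, Acadvl, Acot12, Acsm1, Cpt1a and Echs1. Its direct repeat with 1 base between, AGGTCANAGGTCA, the classic PPAR element, was in 0 of the 35 and in 13 of all windows (0.04%). The CCAAT box was in 15 of the 35 (42.9%), against 37.4% of all windows. The Acaa1a window has 4 such matches and the Acaa1b window also 4, of which 2 overlap, and neither window has AGGTCA. The Hadha and Hadhb starts lie 273 bases apart on opposite strands and their windows share 228 bases, which hold neither motif, and both genes had the same sign, at -1.14 and -1.06. A match is a description of these letters and not a binding site.

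The other group held 7 measured genes, 4 with negative and 3 with positive differences and a median of -0.77. In none were the groups apart, against 3.44% of all genes with every ischemic array lower. The long-chain acyl-CoA synthetases, which activate fatty acids at outer membranes for oxidation as well as for lipid synthesis, had the positive values. Acsl5 had 9.35, 9.26, 10.34, 9.73 and 9.98 on ischemic arrays, against 8.87, 9.02 and 9.79 on normal arrays. Acsl4, which prefers arachidonic acid, had 7.37, 8.04, 8.32, 8.08 and 7.85 on ischemic arrays, against 6.71, 7.62 and 7.97 on normal arrays. Both overlapped, with differences of 0.50 ± 0.33 and 0.50 ± 0.34 (SE, limma adjusted p = 0.888 and 0.896), and the other Acsl4 probe sets gave 0.28 and -0.37. With low Xist signal alone the Acsl4 difference was 0.29. Acsl3 had 8.76, 6.23, 6.67, 6.94 and 6.50 on ischemic arrays, against 7.78, 5.59 and 6.36 on normal arrays. The high value of ischemic 1 stands alone in that group, and the difference was 0.44 ± 0.66 (limma adjusted p = 0.962). It was -0.054 without normal 2, 1.04 without normal 1 and 0.73 with low Xist signal alone. The other Acsl3 probe sets gave 0.34 and -0.64 over all arrays.

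Acot12, a cytosolic thioesterase that splits acetyl-CoA, had 4.66, 8.13, 5.47, 4.80 and 4.82 on ischemic arrays, against 9.54, 6.75 and 7.62 on normal arrays. On ischemic 2 it lay within the normal range, while the other 4 ischemic arrays lay below it, and the difference was -2.39 ± 0.91 (SE, limma adjusted p = 0.587). Ech1, an isomerase for unsaturated chains found in both organelles, had 5.98, 6.98, 8.04, 6.64 and 7.66 on ischemic arrays, against 8.79, 8.26 and 7.72 on normal arrays. The difference was -1.20 ± 0.48 (limma adjusted p = 0.640), with ischemic 3 within the normal range, and was -0.54 with low Xist signal alone. Crat, carnitine acetyltransferase, had 4.22, 4.93, 6.17, 4.44 and 5.56 on ischemic arrays, against 7.12, 5.23 and 5.40 on normal arrays. Its groups overlapped, with a difference of -0.85 ± 0.57 (limma adjusted p = 0.894) that was 0.074 among the arrays of low Xist signal. The other Crat probe sets gave -0.19 and 0.20 over all arrays. Fabp3, a cytosolic fatty acid binding protein, differed by -0.77 ± 0.52, with its highest value of all arrays, 8.22, on ischemic 1.

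Markers of tubule cells had lower values on ischemic arrays as well. All 20 measured proximal tubule markers had negative differences, against 45.2% of all genes, with a median of -3.11. At an unadjusted p under 0.05, 18 of the 20 were lower, against 5.02% of all genes. The 20 markers had a summed deposited intensity of 2896 to 5323 on ischemic and 14005 to 36383 on normal arrays. Between 2 and 12 of the 20 had a deposited intensity under 16 on ischemic arrays, the most on ischemic 4, and at most 1 on normal arrays. All 12 distal nephron markers were also negative, with a median of -2.07 and a summed intensity of 2387 to 3448 on ischemic and 8314 to 9249 on normal arrays. The 14 macrophage markers were positive, with a median of 0.76 and a summed intensity of 15203 to 28327 on ischemic and 12206 to 15927 on normal arrays. The 8 endothelial markers had a median of -1.09 and the 12 fibroblast markers 0.42, each with overlapping groups in every gene. The part of these cell types in the oxidation genes was not tested.

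**Figure D3:**
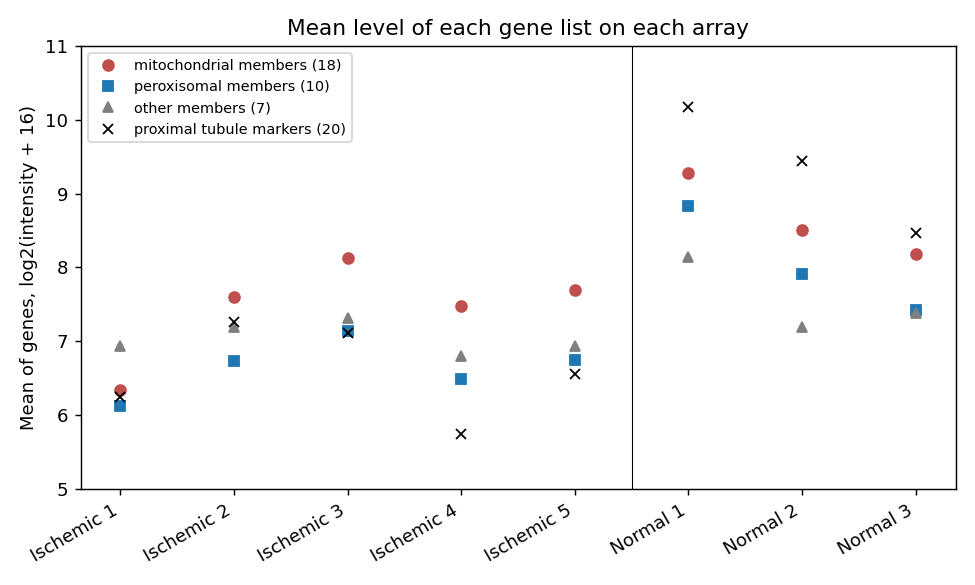
Mean on the log2(intensity + 16) scale of the 18 mitochondrial, 10 peroxisomal and 7 other oxidation genes and of 20 proximal tubule markers, for each array, with ischemic arrays left of the line and normal arrays right of it. Ischemic 4 has the lowest mean of tubule markers (5.74) and ischemic 1 the lowest mitochondrial mean (6.34), and the levels of different lists are not comparable.

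Genes grouped with the same organelles that were not among the 37 mostly had the same sign. Of all genes, 45.2% were negative and 5.02% were lower at an unadjusted p under 0.05. Of 24 other measured genes of acyl-CoA and ketone metabolism, grouped as mitochondrial although Acot1 acts in the cytosol, 23 were negative. Their median was -0.87, and 8 of them were lower at that threshold. In 6 of the 24 the groups were apart, against 3.44% of all genes. Among them Acsm2, a further matrix acyl-CoA synthetase, differed by -2.50 ± 0.48 (SE), Bdh1, of ketone body metabolism, by -2.12 ± 0.33 and Acsm5 by -1.74 ± 0.37, all with groups apart and none passing (limma adjusted p = 0.149, 0.128 and 0.172). Of 28 other measured genes grouped as peroxisomal, 18 were negative, with a median of -0.37, and 10 were lower at that threshold. They included Slc27a2, which activates and takes up very long chains, at -3.47 ± 0.62, Amacr, the racemase for branched chains, at -2.74 ± 0.52, Pecr, an enoyl-CoA reductase, at -2.06 ± 0.52 and Cat, catalase, at -0.80 ± 0.28, and none passed (limma adjusted p = 0.140, 0.149, 0.240 and 0.517). The 12 measured genes with a Pex symbol in this list split, with 5 negative and 7 positive.

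Of 18 regulators, 12 were negative, against 45.2% of all genes, and 6 were lower at an unadjusted p under 0.05, against 5.02%. Ppargc1a, the PGC-1 alpha gene, differed by -3.24 ± 0.46 (SE), Prkaa2, a catalytic subunit of the AMP-activated kinase, by -2.78 ± 0.44, Esrrg, an estrogen-related receptor, by -2.31 ± 0.41 and Hnf4a, an epithelial transcription factor, by -2.93 ± 0.59. The groups were apart in these 4 and in 5 of all 18, against 3.44% of all genes. None of the 4 passed (limma adjusted p = 0.122, 0.128, 0.140 and 0.150). Ppara, the PPAR alpha gene, had 6.64, 5.44, 5.59, 5.21 and 4.68 on ischemic arrays, against 9.65, 8.83 and 5.10 on normal arrays. Normal 3 lay below 4 of the 5 ischemic arrays, and the difference was -2.35 ± 0.95 (limma adjusted p = 0.642).

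Genes of fatty acid uptake and storage and of fatty acid synthesis had medians closer to that of all genes. Of 15 measured genes of uptake, lipid stores and fuel choice, 10 were negative, against 45.2% of all genes, with a median of -0.16. At an unadjusted p under 0.05 only 1 of the 15 was lower, near the 5.02% of all genes. It was Pdk4, a kinase that shuts pyruvate oxidation, at -2.51 ± 0.72 (SE), with groups apart, and it did not pass (limma adjusted p = 0.341). Plin2, a lipid droplet coat protein, was at 0.56 ± 0.27, Lipe, hormone-sensitive lipase, at 1.13 ± 0.91 and Fabp4 at -0.63 ± 0.62, all with overlapping groups. Of 16 genes of synthesis, 8 were negative, against 45.2% of all genes, with a median of 0.0069. At an unadjusted p under 0.05, 3 of the 16 were lower, against 5.02% of all genes. In these 3 the groups were apart, against 3.44% of all genes, and none passed (limma adjusted p = 0.149, 0.267 and 0.440). They were Gpam, which starts glycerolipid synthesis, at -2.44 ± 0.47, Me1, malic enzyme, at -2.19 ± 0.58, and Fads2, a desaturase, at -1.06 ± 0.34. Elovl5, an elongase, was at 0.026 ± 0.28.

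**Figure D4:**
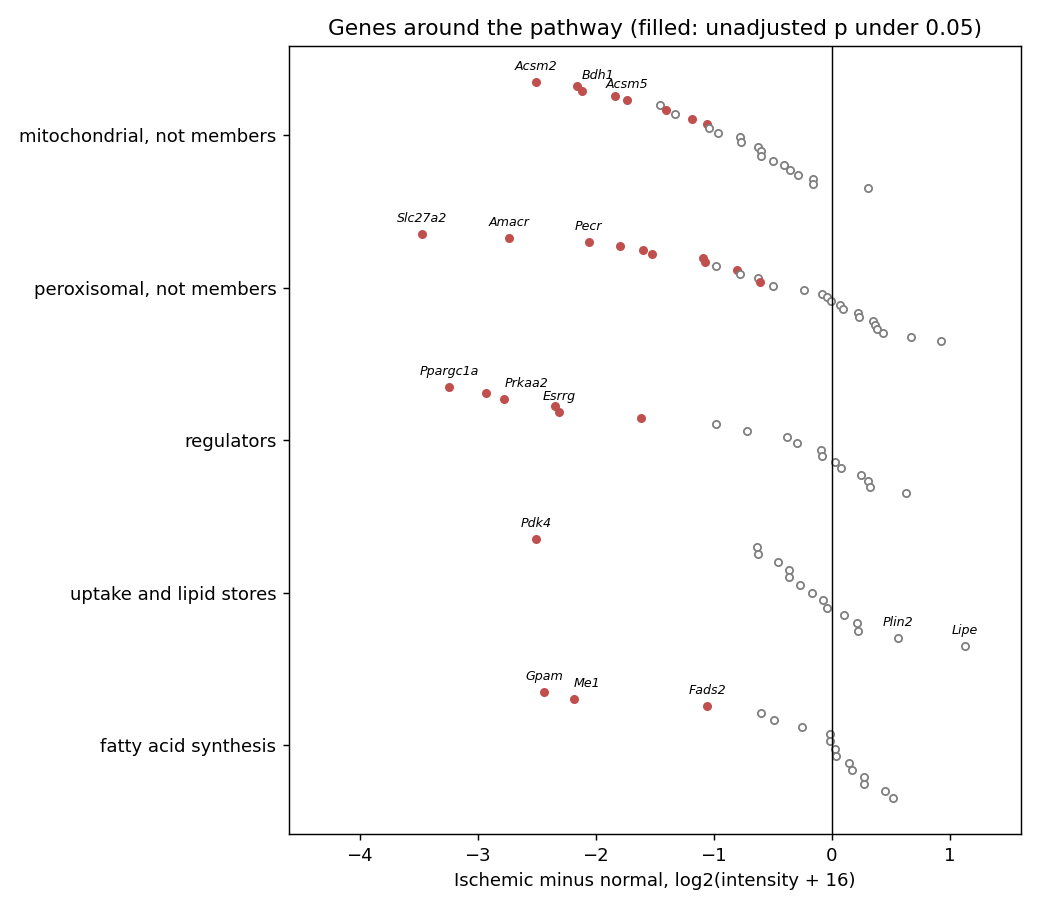
Differences between ischemic and normal arrays on the log2(intensity + 16) scale for genes around the pathway that are not among the 37, 1 point a gene in 5 lists. Filled points have an unadjusted p under 0.05 and the names are those of lowest p in each list, with most filled points among the mitochondrial, peroxisomal and regulator genes.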

How the data were processed

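RNA from sorted cells was amplified and labelled with NuGEN kits and put on Affymetrix arrays for mouse genes, per the labels' protocols. The authors deposited 1 linear intensity per probe set and array, from 0.6 to 13981. How they were summarised, background-corrected and scaled, and with which software, is not given in the sources used here. Precision is limited by there being 8 arrays.

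Of 45101 probe sets, 64 were controls, 34945 had 1 gene symbol in the platform annotation, 932 had several and 9160 were not listed. The deposited intensities were put on a log2 scale as log2(intensity + 16), which understates differences of dim genes. Quartiles differed between arrays by 0.28 to 0.39, more than the tolerance of 0.1, and quantile normalisation was applied. Each of 18193 genes took its probe set of highest mean over the 8 arrays. The comparison of ischemic with normal arrays used limma 3.58.1 in R 4.3.3 (lmFit and eBayes, group only). The p-values were adjusted over the 18193 genes by the Benjamini-Hochberg method, the threshold was 0.05, and the code was tested on simulated data.

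The genes of the pathway, the lists around it and the markers were chosen with earlier results of these data known, so no p-value is given for a list. Values on every array are given for, in each group of members, the 4 of lowest p, the 2 of highest mean and those of positive difference whose mean reached the median of all genes (5.93). From each list around the pathway the 3 of lowest p and the 1 of highest mean are named. The array values of Cpt1a, Acaa1a and Ppara fall outside this rule and were chosen after their values were seen. Alternatives covered normalisation, pseudocount, low genes, probe set choice, limma settings, Xist signal, a replicate block and each array left out.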

Additional observations from a re-analysis of the deposited data

Results flagged for a closer look

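In 38 comparisons of the 5 ischemic arrays among themselves, for the measured members and the mean of each of the 3 groups of members, 1 array lay far from the others in 5 genes, where chance gives about 1 in 20. The normal group of 3 arrays was not examined in this way. On ischemic 1, Cpt1a was at 7.55 with the other ischemic arrays at 8.72 to 9.05, and the gap took up 0.782 of the group's range. On the same array Acadvl was at 6.62 with the others at 8.82 to 9.35 (0.809 of the range), and Acaa2 was at 5.50 with the others at 7.98 to 8.79 (0.752 of the range). Acsl3 went the other way on ischemic 1, at 8.76 with the others at 6.23 to 6.94 (0.718 of the range). On ischemic 2, Acot12 was at 8.13 with the others at 4.66 to 5.47 (0.766 of the range). Without ischemic 1 the Acadvl difference was -0.55 and the Acaa2 difference -0.79, and without ischemic 2 the Acot12 difference was -3.03.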

How the results depend on the processing

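Of the single-gene results over all alternatives, 756 kept their sign and their side of the threshold, 10 changed sign and 2 passed where they had not. The number of genes past an adjusted p of 0.05 in limma, 0 in the fit reported (with 1297 at an unadjusted p under 0.05), was 2 without normalisation, 1 with a pseudocount of 1, 15 among genes at or above the 40th percentile, 2 with the mean of all probe sets, 31 with a trend in eBayes, 5 with array weights, 1 with Xist signal as a block, and 0 to 113 with 1 array left out, the highest without normal 3. Abcd3 (-2.03) and Ehhadh (-3.22) passed there, and no other member passed in any alternative run. The 17 members lower at an unadjusted p under 0.05 became 7 with the replicate block (against 5.29% of all genes) and 9 with the arrays of low Xist signal (3.28%). With 1 array left out they became 8 to 18 (8 without normal 1), where 3.39% to 6.12% of all genes were lower. Same-numbered arrays had correlations of deviations of 0.16, -0.088 and 0.10, so the numbers are not taken to pair them. The 11 members with groups apart became 29 with the 3 arrays of high Xist signal, where 32.9% of all genes were apart. With 1 array left out they became 11 to 18, where 4.16% to 7.87% of all genes were apart. The median of the mitochondrial members (-1.05) was -0.48 with low and -1.98 with high Xist signal, -0.57 with array weights and -1.29 to -0.78 with 1 array left out. The peroxisomal median (-1.27) was -0.67 with low and -2.42 with high Xist signal and -1.56 to -0.91 with 1 array left out. The median of the other members (-0.77) was -0.43 with a pseudocount of 64, -0.17 above the 40th percentile, -0.28 with the mean of probe sets, -0.20 with array weights, 0.074 with low Xist signal, and -1.11 to -0.25 with 1 array left out. Signs changed for Acaa1a with the probe set of largest variance (0.17), array weights (0.0040), low Xist signal (0.19) and with 1 array left out (-0.39 to 0.20, the highest without normal 1). With low Xist signal they changed for Cpt2 (0.027), Acadsb (0.076), Etfdh (0.18) and Crat (0.074), and for Acsl3 with high Xist signal (-0.29) and with 1 array left out (-0.054 without normal 2 to 1.04 without normal 1). The cause was not tested. Values near an intensity of 1 (4.09 on the scale) have little room below them, which limits the differences of dim genes.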
